A study of Mus musculus with 40 samples.

Results

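Glycolysis is the chain of enzymes that splits glucose into pyruvate, and 10 genes of it were followed here: Slc2a1, Hk2, Gpi1, Pfkl, Aldoa, Tpi1, Pgk1, Pgam1, Pkm and Ldha. They were picked by name, as the rows of the count table whose Ensembl identifiers carry these symbols. The choice was made with earlier results of these data known. All 10 were found among the 21958 genes of the table, and all 10 passed the filter on low counts in each of the 11 fits. The table came from sorted B-lineage cells of mouse bone marrow, 40 libraries of 100 cells each, made with Smart-seq2, a full-length method that amplifies polyadenylated RNA from very few cells.

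The mutant mice carried donor marrow homozygous for P198A, a CRISPR/Cas9-made change of the zinc transporter ZIP7 (Slc39a7), and the WT mice carried WT donor marrow. All 10 mice, 5 of each genotype, were straight chimeras: lethally irradiated CD45.1 hosts repopulated for 8 weeks and then sorted for CD45.1- CD45.2+ donor cells. Each mouse gave 1 library of each of 4 Hardy fractions, so that mutant and WT each had 5 libraries in FrB, FrC, FrD and FrE. FrB (pro-B) was gated as B220+ CD43+ CD24+ BP1-, FrD (late pre-B) as B220+ CD43- IgM- IgD-, and FrE (immature B) as B220+ CD43- IgM+ IgD-. Neither the gate of FrC nor the age of the mice is given in the sources used here. The sample titles abbreviate the mutant as KO, but P198A is a missense allele, so that the level of Slc39a7 RNA is no check of it. Mutant mice were numbered 4, 5, 8, 9 and 10, WT mice 1, 2, 3, 6 and 7, and values below follow that order within a group.

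Glucose enters the cell through transporters such as the one encoded by Slc2a1, is trapped by hexokinase, split by aldolase and carried to pyruvate with a gain of ATP. Lactate dehydrogenase then turns pyruvate into lactate and restores the NAD that the pathway needs. Early B-cell progenitors that divide fast are known to run glycolysis at a high rate, small resting pre-B cells at a low rate, and MYC and the hypoxia factor HIF1A are known activators of most of these genes.

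By role, the members were 1 transporter, 3 enzymes before the split, 1 at the split, 4 after it and 1 that makes lactate; positions are those of GENCODE M21 on GRCm38. Slc2a1 (ENSMUSG00000028645, chr4:119108711-119137983, plus strand) encodes the glucose transporter GLUT1. Hk2 (ENSMUSG00000000628, chr6:82725025-82774454, minus strand) encodes hexokinase 2, which phosphorylates glucose, Gpi1 (ENSMUSG00000036427, chr7:34201330-34230336, minus) the isomerase that turns glucose 6-phosphate into fructose 6-phosphate, and Pfkl (ENSMUSG00000020277, chr10:77986947-78010083, minus) the liver-type phosphofructokinase of the committed step. Aldoa (ENSMUSG00000030695, chr7:126795234-126800751, minus) encodes aldolase A and Tpi1 (ENSMUSG00000023456, chr6:124810586-124814296, minus) the triose isomerase that converts the products of the split into each other. Pgk1 (ENSMUSG00000062070, chrX:106187100-106203699, plus) encodes phosphoglycerate kinase, an ATP-yielding step, and Pgam1 (ENSMUSG00000011752, chr19:41911923-41918660, plus) the mutase after it. Pkm (ENSMUSG00000032294, chr9:59656368-59679375, plus) encodes pyruvate kinase, and Ldha (ENSMUSG00000063229, chr7:46841475-46855627, plus) the A subunit of lactate dehydrogenase. The steps between Tpi1 and Pgk1 (Gapdh) and between Pgam1 and Pkm (Eno1) have no member and were followed beside them. Counts of these genes cover whole genes, so that the M1 and M2 forms of pyruvate kinase were not told apart.

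Because MYC and HIF1A bind short core motifs, CACGTG and ACGTG, the 250 bases before each RefSeq transcript start (GRCm38.p6, sequences from RefSeq) were searched on both strands. ACGTG stood before at least 1 start of 7 of the 10 members (Slc2a1, Hk2, Aldoa, Pgk1, Pgam1, Pkm and Ldha), against 18.5% of 27025 genes. Hk2, Aldoa and Pgk1 had it before a start shared by a GENCODE M21 transcript. Slc2a1, Pgam1, Pkm and Ldha had it only before a start that matches no transcript there. CACGTG stood before Ldha only of the members, against 6.86% of those genes, and each CACGTG also counts as ACGTG on both strands. The GC box GGGCGG stood before 8 of the 10 members, against 35.4%. A window without the letters says nothing of the factors, and no binding was measured. Ldha is shown because its level differed most between fractions among the called members, Pgk1 for its 2 copies of ACGTG, and Gpi1, another called member, for a window with neither motif. RefSeq has another Ldha start, shared by a GENCODE M21 transcript, and its window (chr7:46846832-46847081) holds neither motif; the start of the window shown matches no transcript there. Each runs 5′ to 3′ on the gene's own strand and ends at the base before the start, with capitals marking ACGTG or CACGTG on either strand. They lie at chr7:46845554-46845803 (plus strand, Ldha), chrX:106186850-106187099 (plus strand, Pgk1) and chr7:34230337-34230586 (minus strand, Gpi1).
Ldha: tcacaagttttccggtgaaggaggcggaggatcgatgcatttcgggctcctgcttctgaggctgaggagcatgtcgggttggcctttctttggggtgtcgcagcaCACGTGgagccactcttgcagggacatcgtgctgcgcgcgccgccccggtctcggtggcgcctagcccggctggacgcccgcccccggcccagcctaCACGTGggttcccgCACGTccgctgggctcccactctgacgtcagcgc
Pgk1: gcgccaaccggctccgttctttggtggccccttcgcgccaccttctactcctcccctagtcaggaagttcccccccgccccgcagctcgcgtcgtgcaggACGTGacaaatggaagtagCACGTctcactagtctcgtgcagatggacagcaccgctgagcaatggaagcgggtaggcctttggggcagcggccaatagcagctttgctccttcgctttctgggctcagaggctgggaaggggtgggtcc
Gpi1: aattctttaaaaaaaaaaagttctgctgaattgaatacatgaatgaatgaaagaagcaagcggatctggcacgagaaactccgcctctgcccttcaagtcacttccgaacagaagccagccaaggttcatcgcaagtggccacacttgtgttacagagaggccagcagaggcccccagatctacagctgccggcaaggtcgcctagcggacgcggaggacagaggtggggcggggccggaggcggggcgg

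The shallowest library held 42111 endogenous counts, the next 1723215, the median library 16474389 and the deepest 43372070. Low complexity is used below for libraries in which more than 15% of detected genes were seen by only 1 to 9 counts; there were 10 of them, 8 mutant and 2 WT, and 30 others. They were mutant FrB of mice 4, 8, 9 and 10, mutant FrC of mice 5, 9 and 10, mutant FrE of mouse 9 (the 42111 library), WT FrD of mouse 3 and WT FrE of mouse 7. The term largely follows depth. All of them but mutant FrB of mouse 10 (14529319 counts) held at most 9704316 counts, and the 30 others at least 12514009. All 7 markers of pro-B and early B-lineage cells (Dntt, Vpreb1, Igll1, Kit, Spn, Il7r, Enpep) were detected in each group, and their summed level ranged from 5113 to 6994 CPM (counts per 1000000 endogenous counts) in mutant FrB against 4253 to 7003 CPM in WT FrB. All 14 granulocyte and monocyte markers were also detected in each group, at a summed median of 22913 CPM (range 2582 to 58772) in mutant FrB and 2778 CPM (128 to 11520) in WT FrB. The reads were amplified and carried no molecular identifiers. In sorted pools a lower level can mean fewer cells that carry the RNA or less RNA per cell, and these cannot be told apart here. Fold changes, standard errors and adjusted p-values are from edgeR's quasi-likelihood test fitted on all genes. Benjamini-Hochberg adjustment was over all genes tested, with calls at an adjusted p under 0.05. Each library is a different mouse within a group, so p-values measure the spread between libraries. That spread holds differences between mice together with those of sorting and amplification. The main fits of WT steps and of step differences took the 4 libraries of a mouse as independent.

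The 10 genes spanned a wide range of levels. Per kb of annotated exon, WT FrC libraries held a median of 804.5 CPM per kb of Ldha (range 547 to 1063), 265 of Tpi1 (218 to 310), 174 of Aldoa (137 to 211), 85.0 of Pkm (61.1 to 122) and 53.6 of Gpi1 (35.3 to 56.3). Then came Pgam1 at 34.8 CPM per kb (22.2 to 46.8), Pgk1 at 22.6 (18.4 to 26.4), Slc2a1 at 7.16 (3.22 to 8.60), Pfkl at 7.07 (2.12 to 11.2) and Hk2 at 2.996 (2.12 to 4.12). The ranges of Ldha, Tpi1, Aldoa, Pkm and Gpi1 did not overlap their neighbours' from the top down to the pair of Pkm and Gpi1. Gpi1 overlapped Pgam1, Pgam1 overlapped Pgk1, and Slc2a1, Pfkl and Hk2 overlapped each other, so the order within those sets is not beyond the spread. The transporter and both kinases of the early steps thus stood lowest per length, and Ldha, the last of the chain, highest.

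**Figure D1:**
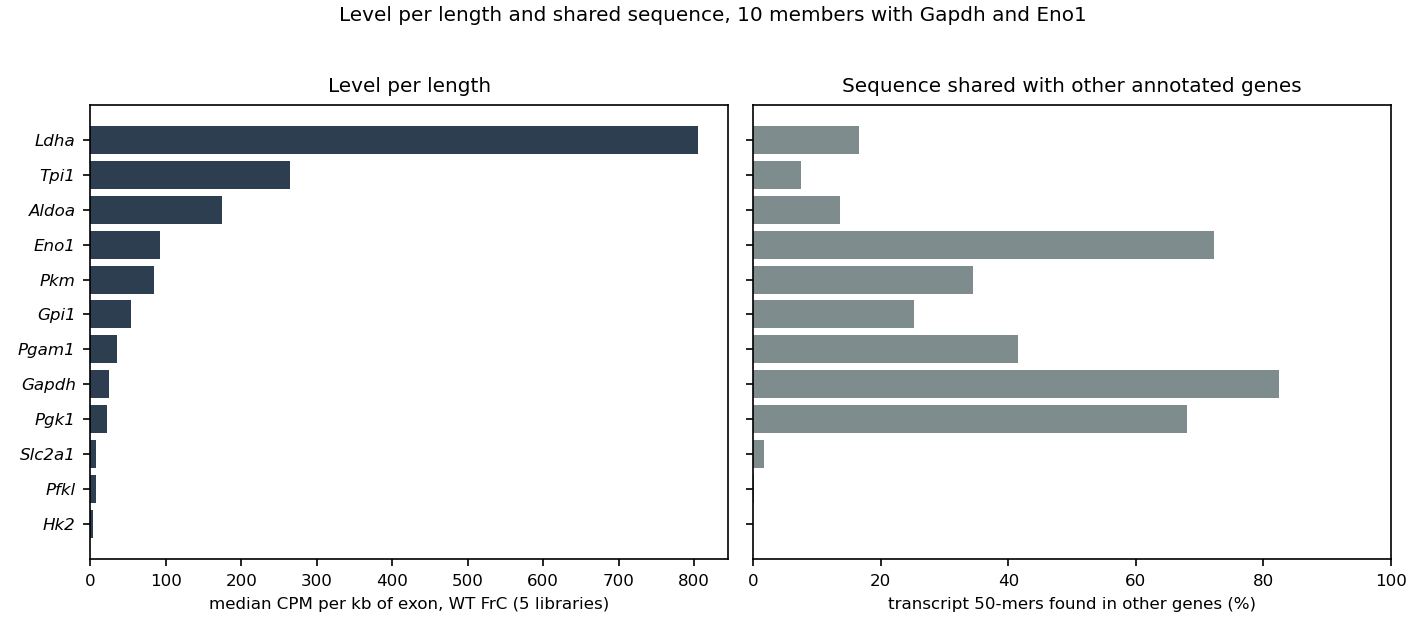
Left, the median level of each gene per kb of exon in the 5 WT FrC libraries (CPM per kb, linear axis from 0), with Gapdh and Eno1 beside the 10 members; right, the percentage of each gene's transcript 50-base words that also occur in other annotated genes. Ldha stood highest per length at 804.5 CPM per kb, and Gapdh shared most sequence, 82.5% of its words.

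Several of these genes have close copies in the genome, which bears on what a count can show. Of all 50-base words of the transcripts, 82.5% for Gapdh, 72.2% for Eno1, 68.0% for Pgk1, 41.5% for Pgam1, 34.4% for Pkm, 25.3% for Gpi1, 16.6% for Ldha and 13.5% for Aldoa also occurred in other annotated genes. For Tpi1 it was 7.51%, for Slc2a1 1.74%, for Pfkl 0.054% and for Hk2 0. The sources used here do not say how reads that match several genes were counted, and the levels of Gapdh, Eno1, Pgk1 and Pgam1 in particular are uncertain. Aldoa shares 25 exon bases with Fam57b and Tpi1 34 with Spsb2, both on the other strand, and the sources likewise give no strand setting.

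In WT cells, FrC held the highest summed level of the 10 genes. The sum was 3014 CPM in FrB (median, range 1856 to 3437), 4599 CPM in FrC (3608 to 6223), 976 CPM in FrD (599 to 1198) and 1845 CPM in FrE (546 to 2857). FrD did not overlap FrB or FrC, whereas FrE overlapped both FrB and FrD. In mutant cells the sums were 2809 CPM in FrB (1947 to 3121), 3485 CPM in FrC (269 to 5230), 2011 CPM in FrD (719 to 2235) and 1326 CPM in FrE (1054 to 2042), and each fraction's range overlapped that of the next. The overlaps of mutant FrC came only from its low-complexity libraries (defined above). Its 2 other libraries held 5146 and 5230 CPM, above every mutant FrB and every mutant FrD library.

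**Figure D2:**
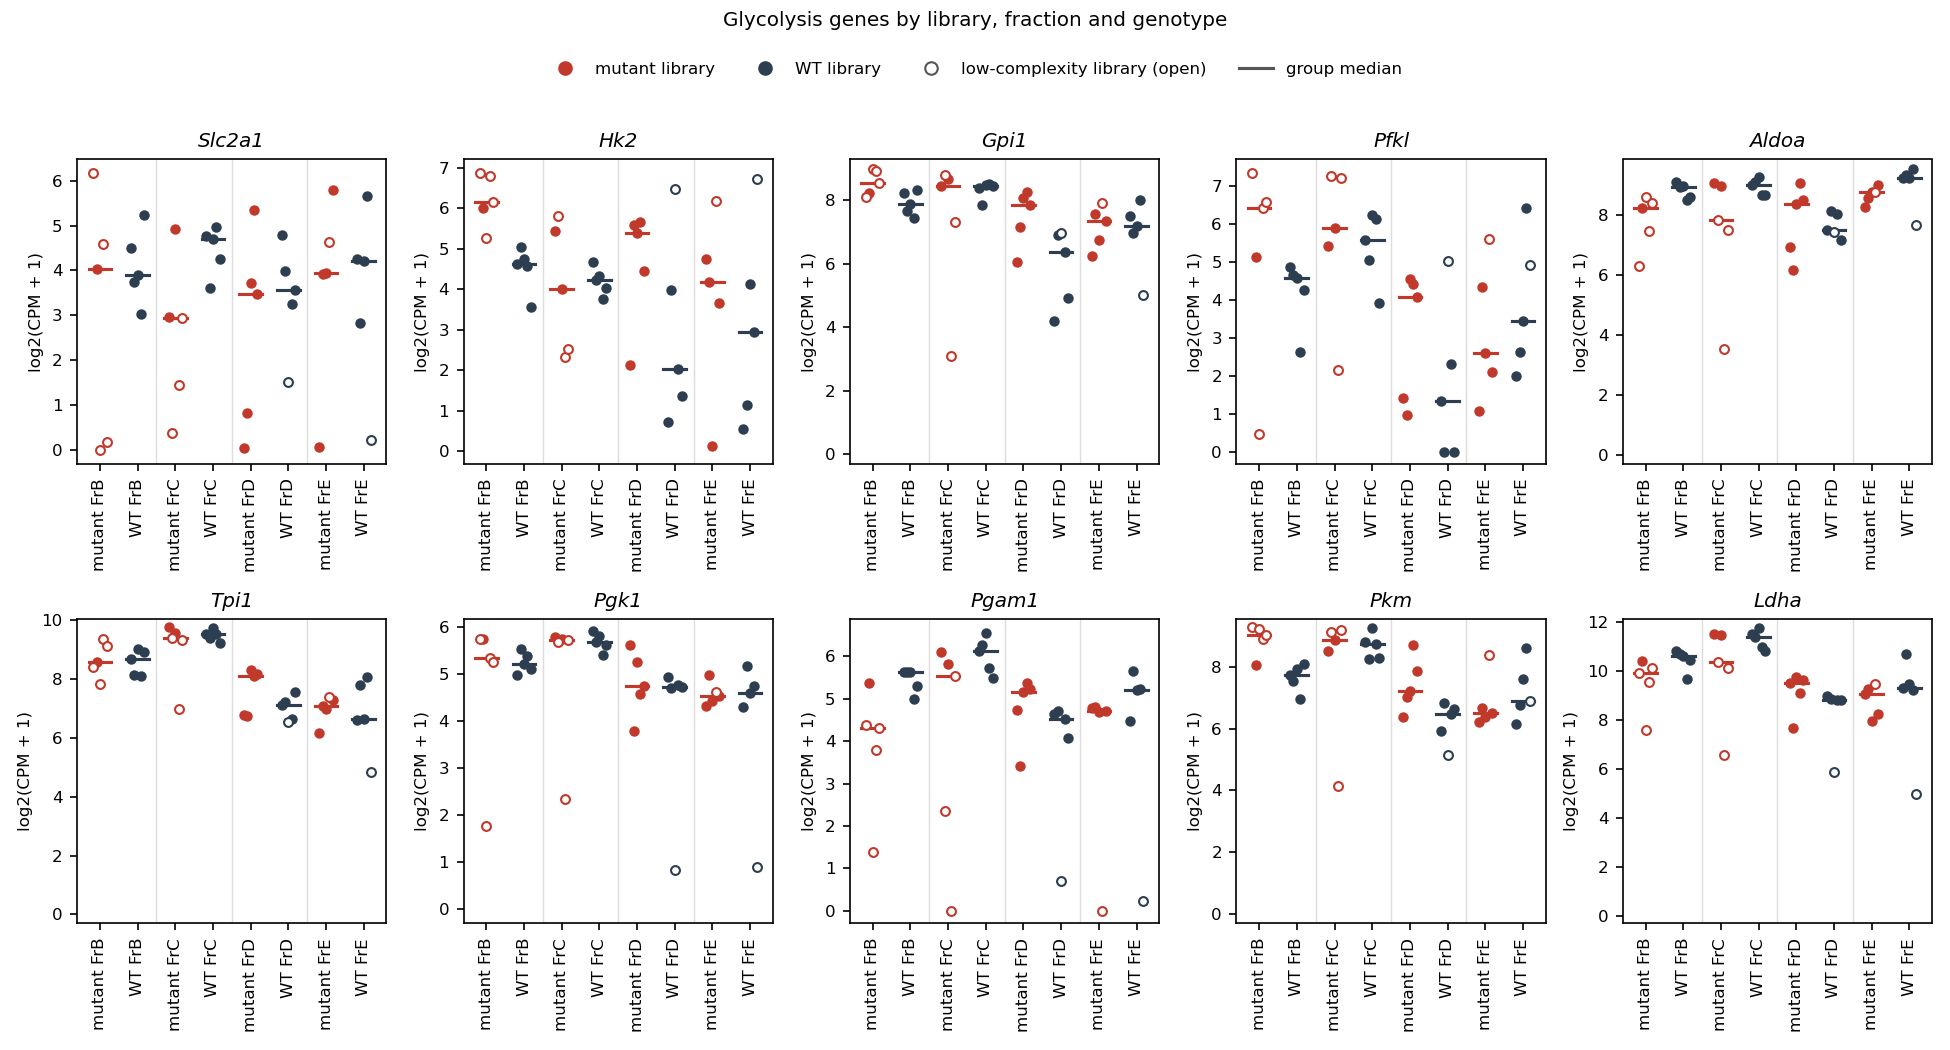
Level of each of the 10 genes in every library as log2(CPM + 1), by fraction (FrB to FrE) with mutant left of WT; open points are low-complexity libraries and lines are group medians. WT FrD lay below WT FrC in every library for 7 of the 10 genes, while mutant FrC spread widely.

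From WT FrB to WT FrC, 9 of the 10 genes had a positive fold change (10 under spike-in scaling), with a median of 0.46 on the log2 scale against 0.01 over all genes, and none was called. Of 50 same-mouse pairs, 43 were higher in FrC. They are 10 genes in the same 5 mice, so the pairs are not independent. The share of such pairs over all genes was not counted. Ldha had 2928, 2663, 3518, 2011 and 1809.6 CPM in WT FrC, against 1821, 1660.3, 1592, 825 and 1421 CPM in WT FrB. Those groups touched only through the lowest FrC library, which lay just under the highest FrB library. The log2 fold changes were 0.94 ± 0.36 for Pkm and 0.79 ± 0.36 for Tpi1 (± SE), with adjusted p of 0.624 and 0.902. Only 0.166% of the 11439 genes tested were called in this comparison in either direction. Without adjustment 2 members had p under 0.05, and DESeq2 called 0. Several marker lists moved too, without overlap. Cycling (G2/M) markers summed to 6158 to 6650 CPM in WT FrC against 3446 to 5490.3 CPM in WT FrB. Immature and mature B markers summed to 1618 to 3259 CPM against 5922 to 9713 CPM. Plasma cell markers summed to 1345 to 11286 CPM against 18498 to 53594 CPM, and plasmacytoid dendritic markers to 246 to 430 CPM against 499 to 899 CPM. Their part in these values was not tested.

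The step from WT FrC to WT FrD was where the pathway changed most: 5 of the 10 genes fell (Gpi1, Aldoa, Tpi1, Pkm and Ldha), and none rose. Over all genes, 2.28% were called lower and 2.95% higher. The members' median log2 fold change was -1.79, against 0.09 over all genes tested. All 5 WT mice had a lower level in FrD for 8 members (all but Slc2a1 and Hk2), and 47 of the 50 same-mouse pairs were lower. The pairs are 10 genes in the same 5 mice and are not independent. Neither count was made over all genes.

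Ldha, which makes lactate, had 502.7, 461, 58.1, 448 and 446 CPM in WT FrD and the 1809.6 to 3518 CPM given above in WT FrC. The groups lay far apart, with the low-complexity library of mouse 3 lowest. Its log2 fold change was -2.59 ± 0.58 (adjusted p = 0.00964). Pkm, the last step to pyruvate, had 59.1, 113, 34.4, 88.3 and 99.1 CPM in WT FrD against 441, 305, 609, 425 and 308 CPM in WT FrC. Every FrD library was below every FrC library, and Pkm fell by 2.21 ± 0.37 on the log2 scale (adjusted p = 0.000907). Tpi1 had 137, 149, 91.2, 97.7 and 188 CPM in WT FrD against 731, 668, 855, 729 and 599.97 CPM in WT FrC, again without overlap. It fell by 2.20 ± 0.38 (adjusted p = 0.00102).

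In the early part of the chain, the isomerase Gpi1 had 17.3, 119, 124, 81.0 and 29.4 CPM in WT FrD against 333, 228, 359.7, 364 and 346 CPM in WT FrC. It fell by 1.81 ± 0.48 on the log2 scale (adjusted p = 0.0283). Aldoa had 177, 277, 168, 259 and 141 CPM in WT FrD against 506.8, 547, 615, 397 and 404 CPM in WT FrC, and fell by 1.04 ± 0.26 (adjusted p = 0.0220). For both, the groups did not overlap. Aldoa was thus the called member with the smallest change and Ldha the one with the largest.

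The other 5 members did not pass the test. Pgam1 had 0.63 to 25.4 CPM in WT FrD against 44.0 to 92.8 CPM in WT FrC (log2 fold change -1.77 ± 0.76, adjusted p = 0.183), and Pgk1 0.78 to 29.6 CPM against 41.2 to 59.3 CPM (-1.09 ± 0.67, adjusted p = 0.400). Neither overlapped, and in both the low-complexity library of mouse 3 was lowest. Pfkl had 1.54, 0, 31.5, 4.00 and 0 CPM in WT FrD against 47.2, 32.0, 74.9, 68.8 and 14.1 CPM in WT FrC (-2.12 ± 1.29, adjusted p = 0.394). A count of 0 there allows up to 0.147 CPM in mouse 2 and 0.126 CPM in mouse 7 (3 counts, counting error only). Slc2a1 had 1.88 to 26.6 CPM in WT FrD against 11.3 to 30.2 CPM in WT FrC and overlapped widely (-0.65 ± 0.83, adjusted p = 0.740). Hk2 had 0.65, 14.8, 88.0, 3.06 and 1.60 CPM in WT FrD against 24.6, 17.9, 19.2, 12.7 and 15.5 CPM in WT FrC; its fold change was 0.82 ± 1.19 with all libraries, -1.28 under spike-in scaling and -1.74 without the low-complexity library of mouse 3 (adjusted p = 0.777, 0.355 and 0.206).

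**Figure D3:**
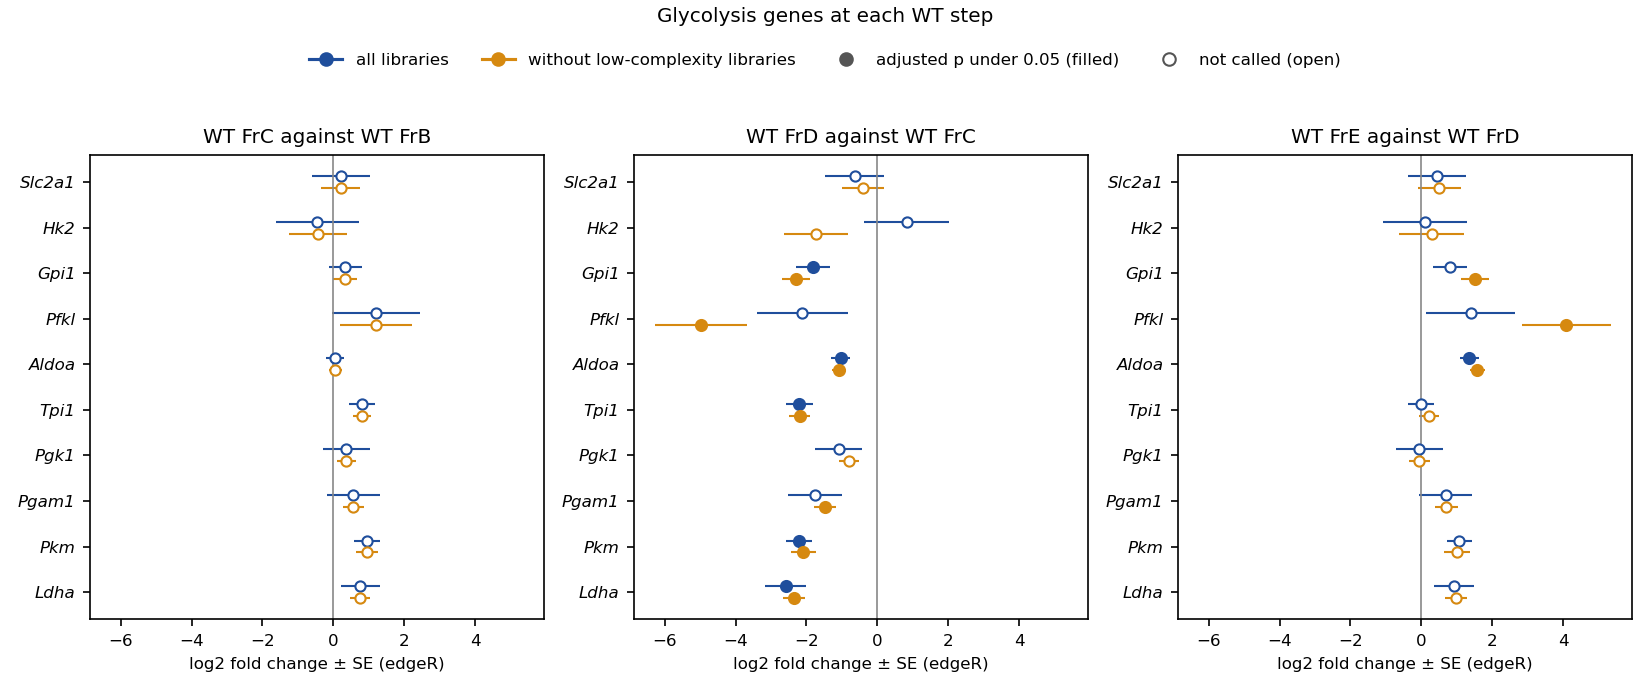
Log2 fold change ± SE (edgeR) of each member at the 3 WT steps, with all libraries (blue) and without low-complexity libraries (orange); filled points had an adjusted p under 0.05. At the step from FrC to FrD the filled points are negative: Gpi1, Aldoa, Tpi1, Pkm and Ldha in both colours, and Pfkl and Pgam1 in orange. At the step from FrD to FrE they are positive: Aldoa in both colours, and Gpi1 and Pfkl in orange.

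Across the table, 9.3% of the genes tested had all WT FrD libraries below all WT FrC libraries, and 7 of the 10 members did (Gpi1, Aldoa, Tpi1, Pgk1, Pgam1, Pkm and Ldha). Without the low-complexity libraries, 7 members fell (Pgam1 by 1.48, adjusted p = 0.00255, and Pfkl by 4.97, adjusted p = 0.0122, joined the 5), against 7.53% of all genes called lower. Tpi1 and Pkm stayed called when each mouse was left out in turn, but the others did not. Ldha lost its call without WT mouse 1 (adjusted p = 0.0679) or mouse 3 (0.0503), and Gpi1 without mouse 1 (0.130), 2 (0.0787) or 6 (0.128). Aldoa lost it without mouse 1 (0.147), 2 (0.0883), 3 (0.0748) or 6 (0.0524), so that 2 to 5 members were called in those fits. Spike-in scaling, which sets levels against the ERCC RNA added to the lysis buffer, moved the median of all genes to -2.39 and that of the members to -4.17, and 9 members were then called lower (all but Hk2), as were 57.7% of all genes tested. The cycling genes moved too: 10 G2/M markers summed to a median of 4374 CPM (3241 to 5571) in WT FrD and 6503 CPM (6158 to 6650) in WT FrC, without overlap. The 7 pro-B and early markers did not overlap either, at 257 to 1500.1 CPM in WT FrD against 3734 to 5575 CPM in WT FrC, and Rag1 and Rag2 summed to 239 to 657 CPM in WT FrD against 51.7 to 197 CPM in WT FrC. The part of cycling cells or of the mix of stages in the fall was not tested.

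From WT FrD to WT FrE, Aldoa rose, with 595, 633, 594.5, 741 and 202 CPM in WT FrE against 177, 277, 168, 259 and 141 CPM in WT FrD. Every FrE library but that of mouse 7, of low complexity, was above every FrD library. Its log2 fold change was 1.35 ± 0.27 (adjusted p = 0.00343), and it lost the call only without mouse 1 (adjusted p = 0.0557) among the fits that leave out a mouse. Over all genes, 2.88% were called higher and 2.43% lower.

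No other member was called at this step with all libraries. Pkm had 69.7, 106, 194, 384 and 119 CPM in WT FrE against 59.1, 113, 34.4, 88.3 and 99.1 CPM in WT FrD (1.07 ± 0.36, adjusted p = 0.0802; 0.0177 with DESeq2). Ldha had 636, 1675, 710.1, 594 and 31.0 CPM in WT FrE against 58.1 to 502.7 CPM in WT FrD (0.92 ± 0.55, adjusted p = 0.364). In both, WT FrE overlapped WT FrD and spread more widely. Tpi1 had 27.9 to 265 CPM in WT FrE against 91.2 to 188 CPM in WT FrD (-0.01 ± 0.36, adjusted p = 0.992), and Pgk1 0.87 to 35.0 CPM against 0.78 to 29.6 CPM (-0.07 ± 0.66, adjusted p = 0.975). Their ranges in WT FrE enclosed or nearly enclosed those in WT FrD. Without the low-complexity libraries 3 members rose, Aldoa (1.57, adjusted p = 4.6e-05), Gpi1 (1.51, adjusted p = 0.0175) and Pfkl (4.09, adjusted p = 0.0485), against 4.31% of all genes called higher. Aldoa was higher in FrE than in FrD in all 5 WT mice, as was Gpi1. With spike-in scaling no member was called, against 2.09% of all genes. Markers moved at this step too, without overlap: the G2/M list summed to 330 to 2456 CPM in WT FrE against 3241 to 5571 CPM in WT FrD, the immature and mature B list to 10814 to 33338 CPM against 1077.5 to 9178 CPM, the plasma cell list to 2287 to 24454 CPM against 1344 to 2049.8 CPM, and Rag1 and Rag2 to 0.26 to 16.8 CPM against 239 to 657 CPM. Their part in the rise of Aldoa was not tested.

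**Figure D4:**
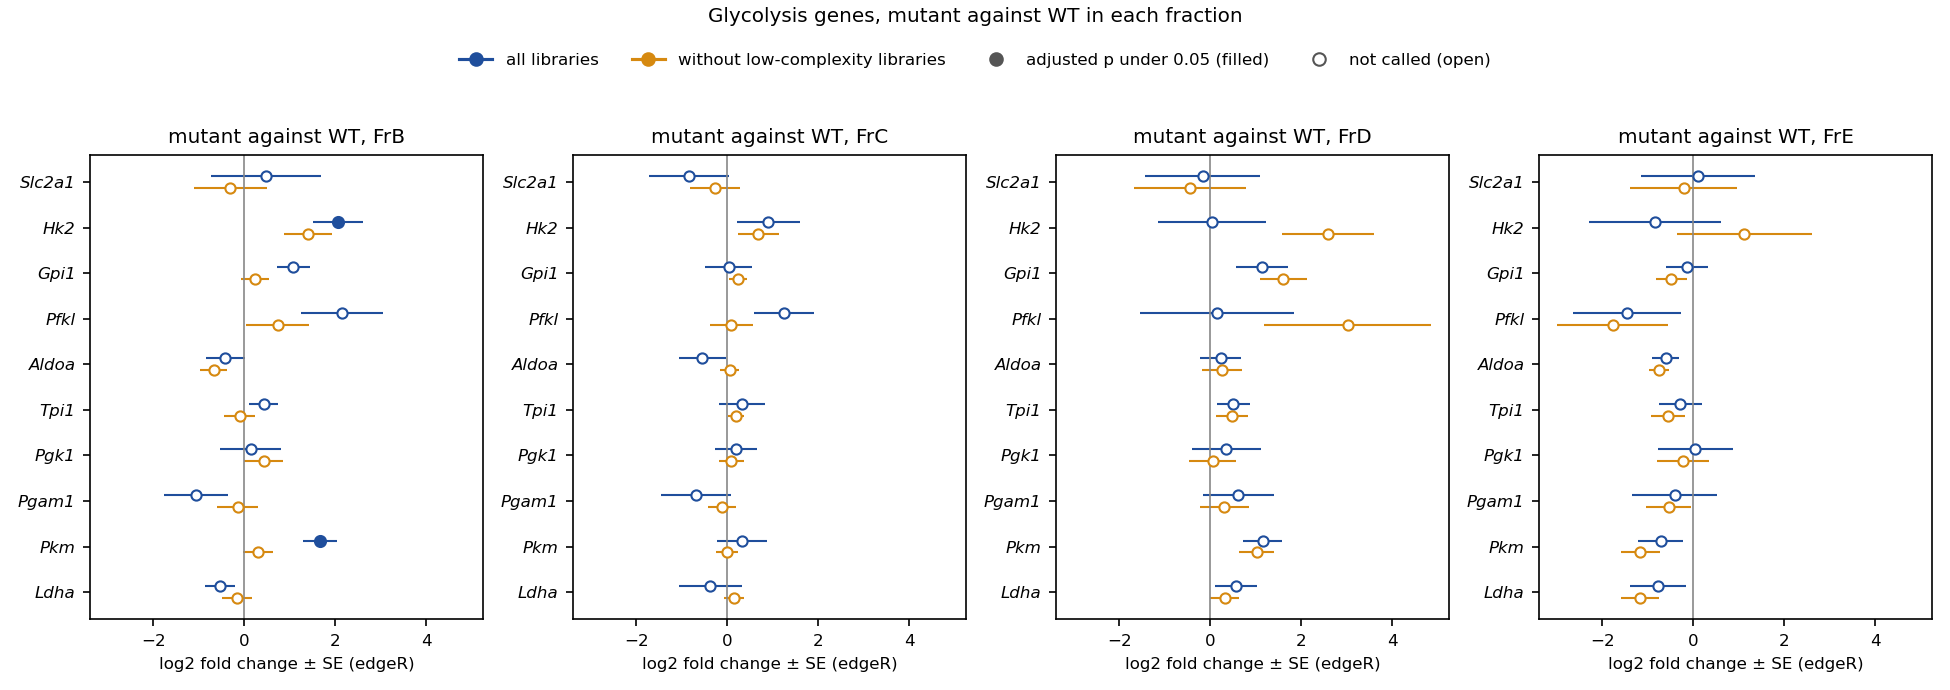
Log2 fold change ± SE (edgeR) of each member, mutant against WT, in FrB, FrC, FrD and FrE, with all libraries (blue) and without low-complexity libraries (orange); filled points had an adjusted p under 0.05. Only Hk2 and Pkm in FrB are filled, and neither is without the low-complexity libraries, which leaves 1 mutant FrB library.

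Between genotypes, FrB was the fraction with calls: Hk2 and Pkm rose in mutant FrB, and no member fell. Hk2 had 116, 63.6, 37.3, 111 and 70.8 CPM in mutant FrB against 23.5, 32.0, 26.0, 23.0 and 10.9 CPM in WT FrB. Every mutant library lay above every WT library. The log2 fold change was 2.06 ± 0.56 (adjusted p = 0.0360). Pkm had 619.6, 264, 594, 477 and 514 CPM in mutant FrB against 212, 186, 242, 123 and 272 CPM in WT FrB. Mutant mouse 5, the only mutant FrB library not of low complexity, was the lowest of its group and lay just under the highest WT library. Pkm's log2 fold change was 1.67 ± 0.37 (adjusted p = 0.0148). Over all genes tested in FrB, 5.64% were called higher and 1.72% lower.

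These calls rested on the libraries in use. With that 1 mutant library left, assumed to vary like the WT libraries, no member was called, against 1.2% of all genes in either direction. Hk2 then had a log2 fold change of 1.39 (adjusted p = 0.267) and Pkm of 0.30 (adjusted p = 0.717). Leaving out 1 library at a time kept Hk2 only without mutant mouse 5, 8 or 10, with adjusted p of 0.0610 to 0.113 without any of the others. Pkm was lost without WT mouse 1 (0.0502) or WT mouse 2 (0.0518). Under spike-in scaling, which called 1.4% of all genes, neither was called (adjusted p = 0.185 for Hk2 and 0.143 for Pkm), and Hk2 was not called with the second index as a covariate (0.0765) or with mice 1 to 5 against mice 6 to 10 as the covariate (0.0630). Several marker lists moved with both genes. The 6 markers of immature and mature B cells measured (of 7) summed to 543 to 1312 CPM in mutant FrB against 5922 to 9713 CPM in WT FrB, and the 7 plasma cell markers to 952 to 13236 CPM in mutant FrB against 18498 to 53594 CPM in WT FrB, in both without overlap. The myeloid markers, given above, had the higher median in mutant FrB and overlapped. So did, in range, the erythroid list at 87.1 to 12303 CPM in mutant FrB against 2273 to 23856 CPM in WT FrB, the G2/M list at 2886 to 5397 CPM against 3446 to 5490.3 CPM, and the recombination genes at 97.3 to 344 CPM against 177 to 281 CPM. The plasmacytoid dendritic list lay at 489 to 991 CPM in mutant FrB against 499 to 899 CPM in WT FrB, the T and NK list at 1.20 to 222 CPM against 26.4 to 226 CPM, and the megakaryocyte list at 0 to 2.81 CPM against 0 to 8.33 CPM. The part of these lists in the difference was not tested.

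Gpi1 and Pfkl, between these steps, had higher means in mutant FrB but were not called. Gpi1 had 272, 302, 507.1, 484 and 372 CPM in mutant FrB against 301, 201, 236, 172 and 319.9 CPM in WT FrB (1.08 ± 0.36, adjusted p = 0.0810). Pfkl had 159.9, 34.0, 0.40, 84.2 and 94.3 CPM in mutant FrB against 28.2, 24.2, 22.9, 5.20 and 18.2 CPM in WT FrB (2.14 ± 0.90, adjusted p = 0.160). In Pfkl 4 mutant libraries were above all WT libraries and that of mouse 8 below all of them. Gpi1 passed the test without mutant mouse 5 (adjusted p = 0.0246) and Pfkl without mutant mouse 8 (0.0206).

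Ldha, Aldoa and Pgam1 had negative fold changes in FrB. Ldha had 980, 1362, 194, 754 and 1121 CPM in mutant FrB against 1821, 1660.3, 1592, 825 and 1421 CPM in WT FrB (-0.53 ± 0.32, adjusted p = 0.331). The means ± SD of Aldoa were 253 ± 125 CPM in mutant FrB and 452 ± 79.7 CPM in WT FrB (n = 5 each), and those of Pgam1 18.8 ± 14.2 CPM and 43.1 ± 8.05 CPM. Pgam1 (-1.06 ± 0.70, adjusted p = 0.375) had no mutant library above 40.6 CPM, inside the WT range of 31.1 to 48.9 CPM. Tpi1, Pgk1 and Slc2a1 differed by 0.43, 0.15 and 0.47 on the log2 scale, none called. Slc2a1 had no count in mutant FrB mouse 8, which allows up to 1.21 CPM, and reached 70.7 CPM in mutant mouse 4. In all, 7 of the 10 members had a positive fold change in FrB (8 under spike-in scaling).

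In FrC no member was called, and neither was any of the 10299 genes tested (0%). Without adjustment, 1168 genes and 0 members had p under 0.05, while DESeq2 called 1479 genes and 0 members. The members' median fold change was 0.11, against 0.09 over all genes. Ldha had 2903, 1329, 2815, 95.2 and 1131 CPM in mutant FrC against 1809.6 to 3518 CPM in WT FrC. Mutant mice 4 and 8, whose libraries were not of low complexity, lay within the WT range, and the 3 low-complexity libraries (mice 5, 9 and 10) below it. For Tpi1 only mouse 9 was below, at 126 CPM, with the other 4 mutant libraries at 639.9 to 878 CPM against 599.97 to 855 CPM in WT FrC. Mouse 9 of mutant FrC had the lowest level of 9 members in its group (all but Slc2a1), among them Pgam1 at 0 counts, which allows up to 1.74 CPM. The immature and mature B list summed to 140 to 812 CPM in mutant FrC against 1618 to 3259 CPM in WT FrC. The G2/M list summed to 4128 to 5876 CPM against 6158 to 6650 CPM. Both were without overlap, while the other marker lists overlapped, and their part in these values was not tested.

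In FrD, 9 of the 10 members had a positive fold change with the main scaling (7 under spike-in scaling and under DESeq2's size factors), with a median of 0.43 against -0.07 over all genes. None was called. Pkm had 81.8, 129, 146, 411 and 229 CPM in mutant FrD against 59.1, 113, 34.4, 88.3 and 99.1 CPM in WT FrD. The mutant libraries of mice 5, 8, 9 and 10 lay above all WT libraries (1.16 ± 0.43, adjusted p = 0.878). Gpi1 had 65.5, 142, 269, 303 and 230.2 CPM in mutant FrD against 17.3 to 124 CPM in WT FrD (1.14 ± 0.58, adjusted p = 0.931). Of all 10043 genes tested 0.00996% were called, that is 1 gene, with 530 at an unadjusted p under 0.05 and 284 called by DESeq2. Granulocyte and monocyte markers summed to 11904 to 23164 CPM in mutant FrD, against 46.5 to 74856 CPM in WT FrD with a median of 2317 CPM, and their part in these values was not tested.

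In FrE, 8 of the 10 members had a negative fold change (10 under spike-in scaling), with a median of -0.50 against -0.10 over all genes. No member and no gene was called (0% of 9662 genes). Of all genes 512 had an unadjusted p under 0.05, as had 0 members, and DESeq2 called 118 genes and 0 members. Aldoa had 305, 372, 427, 427 and 504.8 CPM in mutant FrE against 595, 633, 594.5, 741 and 202 CPM in WT FrE. All 5 mutant libraries lay under 4 of the WT libraries, and only the low-complexity library of WT mouse 7 was below them (-0.60 ± 0.30, adjusted p = 0.949). Without the low-complexity libraries Aldoa's log2 fold change was -0.75 (adjusted p = 0.268). Ldha had 531, 616, 248, 712 and 299.6 CPM in mutant FrE against 636, 1675, 710.1, 594 and 31.0 CPM in WT FrE (-0.77 ± 0.62, adjusted p = 0.999), and the groups overlapped. The 1 low-complexity library of mutant FrE, mouse 9, held 42111 counts in all, so that a gene with 0 counts there, as Pgam1, can have up to 71.2 CPM. Rag1 and Rag2 summed to 142 to 270 CPM in mutant FrE against 0.26 to 16.8 CPM in WT FrE, without overlap, while the other marker lists overlapped. The part of the mix of stages in these values was not tested.

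When the counts of the 4 fractions were summed per mouse, no member was called between genotypes, against 0.631% of all genes; 1 member had an unadjusted p under 0.05, and DESeq2 called 0 members. That member was Hk2 (1.10 ± 0.37, adjusted p = 0.157). Such a sum weights each fraction by its depth, which was uneven. Mutant mouse 9 held 43372070 counts in FrD, 1723215 in FrC and 42111 in FrE, so this comparison mixes genotype with the share of each fraction. With limma on mouse means, which weights the fractions equally, no member was called either.

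Whether the steps themselves differed between genotypes was tested directly, as the mutant step minus the WT step. At the step from FrB to FrC no member was called (0.524% of all genes were), the median of the members was -0.54 against 0.18 over all genes, and Pkm had the lowest adjusted p (-1.36 ± 0.63, adjusted p = 0.348). At the step from FrC to FrD, 2.71% of all genes were called lower and 2.98% in either direction, but no member was, at a median of 0.69 against -0.14. At the step from FrD to FrE 0.153% of all genes and no member were called, at a median of -0.96 against -0.12. The members with an unadjusted p under 0.05 numbered 1, 0 and 1 at these steps, and DESeq2 called 0 at each.

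Pkm showed the largest of these differences at the step from FrD to FrE, -1.85 ± 0.64 (adjusted p = 0.190). It had 72.4, 99.5, 81.7, 332 and 88.7 CPM in mutant FrE against 81.8, 129, 146, 411 and 229 CPM in mutant FrD, lower in FrE in all 5 mutant mice. In WT mice it was higher in FrE in 4 of 5. Among mice with no low-complexity library in either fraction, it was higher in FrE in 2 of 3 WT mice. Of such mutant mice, 4 of 4 were lower in FrE. Without the low-complexity libraries the difference was -2.13 ± 0.51 and was called (adjusted p = 0.0244), where 0.736% of all genes were called lower; in these fractions this removes 1 mutant and 2 WT libraries. With the mouse as a block and all libraries it was not called (adjusted p = 0.754).

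Of the steps of the chain that have no member, that of Eno1 was called at the WT step from FrC to FrD and that of Gapdh was not. Eno1, enolase, had 153, 197, 15.4, 138 and 114 CPM in WT FrD against 524, 496, 580.02, 437 and 372 CPM in WT FrC, and fell by 1.80 ± 0.39 on the log2 scale (adjusted p = 0.00724; not called without mouse 1). Gapdh had 8.95 to 37.1 CPM in WT FrD against 90.9 to 146 CPM in WT FrC (-1.85 ± 0.56, adjusted p = 0.0546), and most of its sequence is shared with its many pseudogene copies. Of the 30 other glycolysis and branch genes tested (of 37 in the table), Eno1 was the 1 that fell. The 1 that rose was Mpc2, a subunit of the mitochondrial pyruvate carrier, with 203, 243, 84.1, 231 and 322 CPM in WT FrD against 95.4 to 116 CPM in WT FrC (1.24 ± 0.30, adjusted p = 0.0148). Mpc2 lost the call without mouse 1 or mouse 2, and under spike-in scaling it was called lower.

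Of the regulators, Myc, an activator of glycolysis genes, had 0.37, 15.5, 0.78, 4.39 and 0.13 CPM in WT FrD against 434, 264, 334, 321 and 180.3 CPM in WT FrC. It fell by 6.02 ± 0.98 on the log2 scale (adjusted p = 0.000763) and kept its call in each fit that left out a mouse. Foxo1, a factor of resting and differentiating B-lineage cells, had 313, 386, 348, 229 and 216 CPM in WT FrD against 86.3, 74.4, 57.1, 127 and 148.5 CPM in WT FrC. Txnip, whose protein restrains glucose uptake, had 262, 329.5, 502.6, 157 and 231 CPM in WT FrD against 34.4, 46.6, 89.1, 140.3 and 93.6 CPM in WT FrC. Both rose, by 1.88 ± 0.34 (adjusted p = 0.00155) and 2.22 ± 0.43 (adjusted p = 0.00317) on the log2 scale, without overlap between the groups. Under spike-in scaling neither was called, and Foxo1 turned negative. They were 2 rises and 1 fall among 11 regulators tested of 12 in the table.

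**Figure D5:**
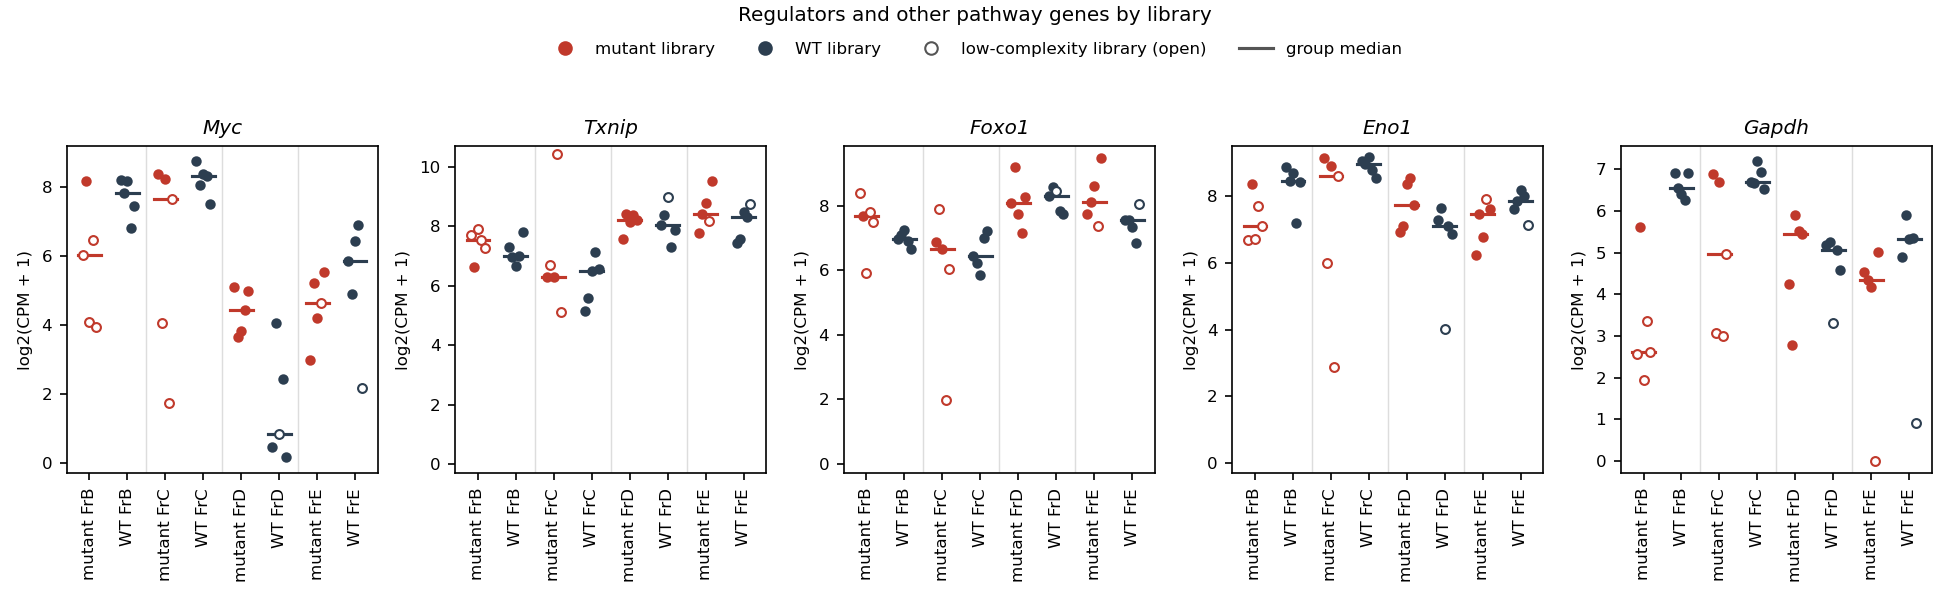
Level of Myc, Txnip, Foxo1, Eno1 and Gapdh in every library as log2(CPM + 1), by fraction (FrB to FrE) with mutant left of WT; open points are low-complexity libraries and lines are group medians. WT FrD was lowest for Myc, at 0.13 to 15.5 CPM, and above WT FrC for Txnip and Foxo1.

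Of 7 pentose phosphate genes, Tkt, the transketolase, fell at that step to 78.6, 52.0, 71.7, 63.7 and 39.9 CPM in WT FrD, against 207, 145, 270.3, 269.7 and 282 CPM in WT FrC (-1.66, adjusted p = 0.0120; lost without mouse 1, 2 or 6). Rpia, the ribose phosphate isomerase, was called higher (3.30, adjusted p = 0.0415), but 4 WT FrD libraries held 6.09 to 33.5 CPM and the low-complexity library of mouse 3 held 249 CPM; without it the fold change was 0.93 (adjusted p = 0.318). Of 11 hypoxia targets, Bnip3 and Bnip3l, which encode mitophagy receptors, were called higher and none lower. Bnip3l had 203, 280.05, 111, 215 and 162 CPM in WT FrD against 57.3 to 102 CPM in WT FrC (1.48, adjusted p = 0.00369; lost without mouse 2). Bnip3 had 40.6 to 112 CPM against 24.6 to 38.8 CPM (1.61, adjusted p = 0.0407) and lost its call without any 1 of the mice. Both turned negative under spike-in scaling. The hypoxia targets as a list had a median of 0.33, and the members one of -1.79. The part of HIF1A or MYC in the members' fall was not tested.

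At the WT step from FrD to FrE, Myc rose with 56.6, 28.8, 86.2, 118 and 3.49 CPM in WT FrE against 0.13 to 15.5 CPM in WT FrD (3.73 ± 0.88, adjusted p = 0.0156; lost without mouse 1, 3 or 6). Slc16a1, the lactate exporter MCT1, fell to 11.6, 80.6, 80.1, 25.7 and 5.06 CPM in WT FrE, against 391, 248, 89.3, 273 and 319 CPM in WT FrD (-2.74, adjusted p = 0.00275), and kept its call in every fit that left out a mouse, but not under spike-in scaling. Pdhb, a pyruvate dehydrogenase subunit, was called lower (-1.01, adjusted p = 0.0489) and Aldoc, another aldolase, higher (adjusted p = 0.0475), but Aldoc had counts in 2 of 5 WT FrE libraries (23.4 and 1.92 CPM) and 1 count in WT FrD; both lost the call whichever mouse was left out. Pgls, of the pentose phosphate branch, was lower at 244 to 773 CPM in WT FrE against 688 to 1067 CPM in WT FrD (-1.23, adjusted p = 0.0234; lost without mouse 1, 2, 3 or 6). Of the hypoxia targets Ankrd37 rose (2.39, adjusted p = 0.0192, lost without mouse 1, 3 or 6). Bnip3l fell (-0.98, adjusted p = 0.0489, lost without mouse 1, 2, 6 or 7). Under spike-in scaling Pdhb, Aldoc, Pgls, Ankrd37 and Bnip3l were not called either, while Myc was. Pgls also lost its call with DESeq2's size factors, and Bnip3l with the mouse as a block or with no filter on low counts.

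In FrB, 5 of the 54 tested entries of these 4 lists (a gene on 2 lists counts on each) were called between genotypes, a share of 9.26% against 7.37% of all genes tested in FrB, so the count itself is near that of the whole table. Gapdh had 4.94, 47.8, 2.81, 9.32 and 5.16 CPM in mutant FrB against 119.7, 92.5, 83.8, 76.3 and 118 CPM in WT FrB, and fell by 2.70 ± 0.72 on the log2 scale (adjusted p = 0.0338). Tkt had 576, 212, 816, 539 and 430.4 CPM in mutant FrB against 137, 104, 152, 107 and 177 CPM in WT FrB (2.40, adjusted p = 0.00712), and Rpia 31.3 to 573 CPM against 8.87 to 14.4 CPM (4.80, adjusted p = 0.00477). Slc16a3, the lactate exporter MCT4, had 1.56, 2.46, 81.9, 56.7 and 3.10 CPM in mutant FrB against 0 to 2.15 CPM in WT FrB (6.40, adjusted p = 0.0363). Adm, a hypoxia target that encodes adrenomedullin, had no count in 4 of 5 mutant FrB libraries and 0.06 CPM in that of mouse 5, against 3.38 to 36.8 CPM in WT FrB, and was called lower (adjusted p = 0.00666). With the 1 mutant library that was not of low complexity, none of the 5 was called: adjusted p was 0.204 for Gapdh, 0.434 for Tkt, 0.375 for Rpia, 0.803 for Slc16a3 and 0.0901 for Adm. Gapdh lost its call in 8 of 10 fits that left out a library and Slc16a3 in 6 of 10, whereas Tkt, Rpia and Adm kept theirs. Under spike-in scaling Gapdh, Slc16a3 and Tkt were not called, while Rpia and Adm were. Slc16a3 also lost its call in the joint fit and with either covariate. No gene of these lists was called in FrC, FrD, FrE, over the 4 fractions or at the WT step from FrB to FrC.

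The difference between genotypes in the step from FrC to FrD called Pgls (-3.79, adjusted p = 0.0253), Rpia (-5.13, adjusted p = 0.0446), Txnip (-5.42, adjusted p = 0.0253) and Bnip3l (-5.11, adjusted p = 0.0293). Txnip had 188 to 341 CPM in mutant FrD against 76.6, 102, 77.6, 1374 and 33.7 CPM in mutant FrC, so that the library of mutant mouse 9 stood apart. None of the 4 was called without low-complexity libraries (Txnip 0.17, adjusted p = 1; Pgls -0.20, Rpia 0.63 and Bnip3l -0.58) or with the mouse as a block. All 4 lost the call without mutant mouse 9 and without any 1 of WT mice 1, 2, 3 and 6, Bnip3l and Rpia also without WT mouse 7, and Rpia without mutant mouse 5 or 10 as well.

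The members did not all vary together over the 40 libraries. Pgk1 and Ldha were the pair with the highest Pearson correlation of log2(CPM + 1), 0.897 over 40 libraries; over the 30 that were not of low complexity it was 0.859, and Pgam1 and Ldha were highest at 0.910. Each member's median correlation with the other 9 was between -0.007 for Hk2 and 0.613 for Tpi1 over all libraries. Hk2 was also the 1 member with a positive fold change from WT FrC to WT FrD in the main fit with all libraries. Even so, it was lower in FrD in 4 of 5 WT mice. Over the 30 libraries the medians were between 0.346 for Hk2 and 0.771 for Tpi1. Libraries of a mouse and of a fraction are not independent, and depth is shared by all genes of a library, so these are descriptions with no test. Outside the lists, the genes whose log2(CPM + 1) correlated best with the members' mean standardised level were the co-chaperone Fkbp4 (0.878 over 40 libraries and 0.874 over 30), the ATP synthase subunit Atp5a1 (0.876 and 0.825), the prohibitin Phb2 (0.872 and 0.853), the RNA methyltransferase Nsun2 (0.864 and 0.825) and the RNA helicase Ddx39b (0.861 and 0.832).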

How the data were processed

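The 10 genes and all lists named here were chosen with earlier results of these data known. The authors deposited a table of raw counts, genes by 40 libraries; per the submitters' processing notes, the tools were HISAT2 2.1.0, featureCounts 1.4.6 of Subread and DESeq2, with build mm10. Neither annotation release nor strand setting is stated in the sources used here, and 92 spike-in rows of the 22050 rows stayed out of library sizes and tests. Totals of 42111 to 43372070 counts set the precision, and floors of 3 counts for a count of 0 cover counting error only.

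Each comparison was fitted with edgeR 4.0.16 (R 4.3.3): genes kept by filterByExpr (minimum count 10, minimum total 15), TMM factors, robust quasi-likelihood dispersion, a two-sided F test, and Benjamini-Hochberg adjustment over all genes tested. Genotypes were compared within a fraction and on counts summed per mouse; WT steps used the 20 WT libraries, and differences of steps all 40. Same-numbered libraries are from 1 animal, so the mouse was tried as a replicate block at the steps; they correlated in their deviations at a median of 0.026. The alternatives were DESeq2 1.42.0 (size factors, and its own test), spike-in scaling, no filter on low counts, covariates for the second index and, added after seeing the data, for mice 1 to 5 against 6 to 10, a joint fit, limma 3.58.1 on mouse means (added likewise), leaving out each mouse, and, added after seeing the data, leaving out the 10 low-complexity libraries. The script was tested on simulated data. Of the 11 marker lists summed, 1 is not reported here.

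All 10 members are described; of the other glycolysis and branch, pentose phosphate, regulator and hypoxia target genes, those called in a comparison are named, and Gapdh and Eno1 always. Likeness names the 5 genes outside the lists with the highest Pearson correlation over 40 libraries. Promoter letters are RefSeq's (GRCm38.p6); gene positions are from GENCODE M21, and shared sequence was counted as 50-base words of its transcripts.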

Additional observations from a re-analysis of the deposited data

Results flagged for a closer look

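Each of the 80 sets of 5 libraries (10 genes, 8 groups) was searched for a library whose gap to the nearest other exceeded 0.71 of the whole range; chance flags about 1 in 20 groups, and 11 were found. Of these, 9 were low-complexity libraries and 2 were not.

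WT FrD of mouse 3 stood apart in 4 genes. Hk2 was at 88.0 CPM there, with the others at 0.65 to 14.8, and Pfkl at 31.5 CPM, with the others at 0 to 4.00. Pgk1 was at 0.78 CPM, with the others at 25.0 to 29.6, and Ldha at 58.1 CPM, with the others at 446 to 502.7. WT FrE of mouse 7 stood high in Hk2, at 105 CPM against 0.47 to 16.5 in the others, and low in Aldoa, at 202 CPM against 594.5 to 741. In mutant FrE mouse 9 had Pgam1 at 0 CPM, with the others at 24.8 to 26.9, in a library where a count of 0 allows up to 71.2 CPM, and Pkm at 332 CPM, with the others at 72.4 to 99.5. Pgk1 was at 4.06 CPM in mutant FrC mouse 9, with the others at 50.4 to 54.3.

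The 2 libraries not of low complexity were mutant FrC of mouse 8, with Slc2a1 at 29.4 CPM and the others at 0.31 to 6.86, and WT FrC of mouse 2, with Gpi1 at 228 CPM and the others at 333 to 364.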

How the results depend on the processing

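Spike-in scaling called 0 members in FrB between genotypes (2 otherwise), 9 at the WT step from FrC to FrD (5 otherwise), where it called 6596 of 11439 genes lower (261 otherwise), and 0 at the step from FrD to FrE (1 otherwise). That scaling moved the median log2 fold change of all genes to 0.74 from WT FrB to WT FrC (0.01 otherwise), 0.29 from WT FrD to WT FrE (0.01) and, between genotypes, 0.59 in FrB (0.11), 0.26 in FrC (0.09), 0.39 in FrD (-0.07) and -0.24 in FrE (-0.10). In FrB, 1 member was called with no filter on low counts, with the second index as covariate, with a joint fit of 40 libraries and with mice 1 to 5 against 6 to 10 as covariate, Pkm each time, and 0 without low-complexity libraries. Without low-complexity libraries 3 members were called from WT FrD to WT FrE and 1 in the difference between genotypes of that step, and DESeq2 called 2 from WT FrD to WT FrE. Leaving out each mouse gave 0 to 3 members in FrB, 2 to 5 from WT FrC to WT FrD, 0 to 1 from WT FrD to WT FrE and 0 in every other comparison. With the mouse as a replicate block, 5 members were called from WT FrC to WT FrD, 1 from WT FrD to WT FrE and 0 at the other steps and step differences, which changed no member's call, while calls over all genes went to 426 (598 without the block) from WT FrC to WT FrD, 338 (608) from WT FrD to WT FrE, and, in the step differences in order, to 0 (65), 1 (370) and 0 (19). The cause of these shifts was not tested, and the spike-in counts behind the spike-in scaling ran from 101 to 187335 per library. The 8 called results of single members kept their sign in all 102 refits and their call in 74. Of the 102 not called, 40 changed sign in at least 1 of 1588 refits (139 refits), and 12 refits made a call. Of 80 group levels, 75 moved by less than 1 SD with DESeq2's size factors and 78 with TMM, as did 45 of the 50 that could be taken without low-complexity libraries. Slc2a1, Hk2 and Pfkl had the lowest levels per length. Pfkl had 0 counts in WT FrD of mice 2 and 7, libraries of 20432166 and 23725831 counts. Hk2 was at 88.0 CPM in the shallower WT FrD library of mouse 3 (6372181 counts). The part of depth in the spread of these 3 genes was not tested.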
